A study of Mus musculus with 4 samples.

Results

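Chromatin accessibility was examined at 29 genes of cholesterol synthesis, uptake and efflux, chosen by name from 21883 protein-coding mouse genes, with earlier results of these data known. These were ATAC-seq libraries, which mark open chromatin by where a transposase inserts, from myeloid-derived suppressor cells, a population known for suppressing T cells. The cells were Gr1+CD11b+ and were sorted from ascitic fluid 14 days after mice were injected with EL4, a lymphoma line of mouse T cell origin. The groups were Sphk2 KO mice, which lack sphingosine kinase 2, and WT mice, with 2 libraries each, described in the labels as biological replicates without the animals behind them. Both groups carried the EL4 tumour. The strain, sex and age of the mice, the cells in which Sphk2 was deleted and any pooling of animals are not given in the sources used here. The comparison asks which sterol genes had called peaks in one genotype and not in the other.

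Cholesterol is built from acetyl-CoA through the mevalonate pathway to squalene and then to sterols, and cells also take it up as lipoprotein cholesteryl ester that lysosomes hydrolyse. When sterols in the endoplasmic reticulum run low, the escort protein Scap carries SREBP transcription factors to the Golgi for activation, and the Insig proteins hold that complex back when sterols are plentiful. SREBP2 acts on promoters of synthesis and uptake genes, usually beside NF-Y and Sp1. Excess cholesterol is esterified, or exported by ABC transporters that the oxysterol receptor LXR induces.

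Most of these genes carried a peak at a gene end in every library, whichever the genotype. A peak lay within 1 kb of a gene end at 25 of 29 genes in each Sphk2 KO library and at 25 of 29 in each WT library. Over all protein-coding genes the share with such a peak was 42.5% and 47.2% in Sphk2 KO replicates 1 and 2 and 47.9% and 48.8% in WT replicates 1 and 2. The same 25 genes had the peak in all 4 libraries (86.2%, against 41.6% of all genes), and the same 4 genes, Pmvk, Fdft1, Insig2 and Sult2b1, had it in none. The mean difference between genotypes was therefore 0 genes (two-sided exact permutation test over libraries, p = 1, where 2 libraries against 2 cannot give a p under 0.333). No sterol gene had a gene-end peak in both libraries of one genotype and in neither of the other. Over all genes this pattern held for 0.101% in the direction of Sphk2 KO and for 1.27% in the direction of WT.

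The count differed between the genotypes by 1 gene when the whole gene was searched. A peak in the gene body extended by 10 kb was called at 29 of 29 genes in each Sphk2 KO library and at 28 of 29 in each WT library (difference 1, exact p = 0.333). All genes stood at 56.5% and 62.4% in Sphk2 KO replicates 1 and 2 and at 64.5% and 65.1% in WT replicates 1 and 2. In all 4 libraries 28 of 29 genes had one, against 55.2% of all genes. The gene behind the difference was Sult2b1, which encodes a sulfotransferase of cholesterol and other sterols. One of 29 genes thus had a body peak in both Sphk2 KO libraries and neither WT library, against 0.114% of all genes, and 0 of 29 had the reverse pattern, against 2.14%. The sterol genes had a median length of 19.7 kb, compared with 17.2 kb for all genes, so the searched windows were of similar size.

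The libraries differed in depth and list length. Retained fragments numbered 25877428 and 27686223 in Sphk2 KO replicates 1 and 2, with 20759 and 27446 peaks, and 33859480 and 34443062 in WT replicates 1 and 2, with 31507 and 31843 peaks. A missing peak therefore says only that none was called at that depth. At Sphk2 itself the region at the upper-coordinate end was called in every library, with −log10 q of 28.0 and 70.5 in Sphk2 KO and 61.6 and 73.5 in WT, and a called peak does not show whether an allele is deleted. Gene-end peaks were called at 10 and 11 of 14 marker genes of the sorted cells in Sphk2 KO and at 12 and 11 in WT. Itgam, which encodes CD11b, had one in every library. Of the family that the Gr1 antibody recognises, Ly6g and Ly6c1 had none, and Ly6c2 had one in some libraries but not all. T cell genes, on the list because host T cells or the tumour could be present, had one at 3 and 4 of 15 in Sphk2 KO and at 3 and 6 in WT. Cd3d and Cd5 had one in every library, and Thy1, Cd4, Zap70, Bcl11b, Lat and Cd247 in some libraries. Cd3e, Cd3g, Cd8a, Lck, Tcf7, Gata3 and Trat1 had none in any library. Monocyte and macrophage markers stood at 4 and 5 of 12 in Sphk2 KO and at 8 and 7 in WT, and B cell markers at 0 of 6 throughout. What part the monocyte markers' difference has in any value below was not tested.

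The sterol genes also shared promoter letters that their selection did not use. RefSeq promoter sequences (GRCm38.p6, the assembly of mm10), running from 250 bases before to 50 after a start, were on hand for 23 of the 29 genes and 30 starts. The NF-Y box CCAAT, searched on both strands as were all motifs here, occurred at 18 of 23 genes (78.3%), against 42.3% of all 17491 genes with a promoter listed. The GC box GGGCGG, bound by Sp1, occurred at 21 of 23 genes (91.3%, against 49.2%). The E-box CACGTG, to which SREBP proteins and other basic helix-loop-helix factors bind, occurred at 7 of 23 (30.4%, against 8.91%). These 7 genes were Abca1, Dhcr7, Hsd17b7, Insig1, Osbpl8, Sc5d and Scap.

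GC boxes and E-boxes were also more frequent among promoters with peaks. Among the 9083 promoters of any gene with a peak within 1 kb in all 4 libraries, GGGCGG was found in 68.4%, CACGTG in 11.0% and CCAAT in 38.9%. Among the 26 such promoters of sterol genes they were found in 24, 8 and 16, and some of these promoters overlap because starts of 1 gene lie close together. The median GC content was 62.3% for the 30 sterol promoters and 56.3% for all promoters. The strict sterol element TCACNCCAC was matched at 1 gene, Hmgcs1 (4.35%, against 1.41%). The LXR element, a direct repeat searched without mismatches, was found at none of the 17491 genes in this window and the CRE TGACGTCA at none of the 23. PU.1 (GAGGAAGT) and C/EBP (TTGCNNAA) motifs, of myeloid factors, were each found at 2 of 23 genes (8.7%, against 3.64% and 11.7%). A match describes letters in a window and does not show that a factor was bound.

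Sequences are printed for 4 promoters that carried peaks in every library and whose motifs can be read by eye, and capitals mark the motif letters named with each. All run 5′ to 3′ on the gene's strand up to the base before the listed start. Hmgcs1 (chr13:119690101-119690350, plus strand) shows TCACNCCAC between CCAAT boxes, Mvk (chr5:114444089-114444268, plus strand) shows 5 CCAAT boxes in either orientation, Insig1 (chr5:28071162-28071411, plus strand) a CCAAT box and CACGTG, and Npc2 (chr12:84773113-84773212, minus strand) CCAAT boxes and TTGCNNAA.
Hmgcs1: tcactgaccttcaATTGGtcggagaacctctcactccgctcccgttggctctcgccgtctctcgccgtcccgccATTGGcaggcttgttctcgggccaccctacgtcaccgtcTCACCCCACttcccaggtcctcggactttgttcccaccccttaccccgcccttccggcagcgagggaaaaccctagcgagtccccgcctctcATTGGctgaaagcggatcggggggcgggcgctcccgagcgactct
Mvk: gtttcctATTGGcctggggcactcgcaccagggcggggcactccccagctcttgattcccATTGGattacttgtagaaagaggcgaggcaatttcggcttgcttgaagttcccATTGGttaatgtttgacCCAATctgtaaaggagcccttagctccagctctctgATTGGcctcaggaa
Insig1: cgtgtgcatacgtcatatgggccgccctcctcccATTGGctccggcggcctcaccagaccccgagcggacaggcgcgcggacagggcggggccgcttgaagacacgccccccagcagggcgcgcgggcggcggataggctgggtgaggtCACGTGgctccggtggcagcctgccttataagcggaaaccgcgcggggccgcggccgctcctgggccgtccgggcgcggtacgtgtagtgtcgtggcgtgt
Npc2: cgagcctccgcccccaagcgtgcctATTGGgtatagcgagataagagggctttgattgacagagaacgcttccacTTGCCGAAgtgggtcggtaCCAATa

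Early mevalonate genes had gene-end peaks at 6 of 7 members. Mvd, the diphosphomevalonate decarboxylase that makes isopentenyl diphosphate, had the strongest, with −log10 q, as the authors' caller gave it, at 116 and 220 in Sphk2 KO replicates 1 and 2 and at 174 and 173 in WT replicates 1 and 2. These q values express how far a peak stands above the local background of its own library and grow with depth and enrichment, so they are compared only within a list. Ranked by −log10 q, the Mvd peak stood within the top 2.49% and 1.93% of the Sphk2 KO lists and the top 1.26% and 1.75% of the WT lists. Idi1, the isomerase of the isoprene unit, stood at 5.06% and 4.32% in Sphk2 KO and 4.54% and 3.12% in WT. Hmgcs1, the cytosolic HMG-CoA synthase, stood at 7.17% and 6.85% in Sphk2 KO and 4.19% and 4.15% in WT. Its summit lay between 150 and 100 bp before the start, around the TCACNCCAC match that begins 137 bp before it. Acat2, Mvk and Fdps, which encode acetoacetyl-CoA thiolase, mevalonate kinase and farnesyl diphosphate synthase, stood lower, between 6.30% and 22.5% over the 4 libraries. The Mvk region also covered an end of Mmab, its neighbour.

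Genes from squalene to cholesterol had gene-end peaks at 8 of 9 members, of widely varying strength. Dhcr7, the reductase of the last step, stood at 6.80% and 4.31% in Sphk2 KO and 4.16% and 6.37% in WT. Sqle, squalene epoxidase, stood at 18.9% and 10.1% in Sphk2 KO and 6.01% and 6.37% in WT. Each of these genes had its peak in every library, with both genotypes overlapping at Dhcr7. Sc5d, Cyp51 and Msmo1, which encode the sterol C5-desaturase, the lanosterol demethylase and the C4-methylsterol oxidase, lay between 6.22% and 22.1%. Lss, the lanosterol synthase, stood at 47.3% and 34.5% in Sphk2 KO and 18.5% and 24.4% in WT, with fold enrichment over local background of 7.01 and 7.94 in Sphk2 KO and 11.5 and 9.17 in WT. Hsd17b7, a sterol ketoreductase, lay between 24.3% and 46.7%. Tm7sf2, a sterol C14-reductase, had the weakest of these peaks (68.4% and 46.7% in Sphk2 KO, 41.8% and 44.5% in WT), in a region that also covered an end of Vps51.

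**Figure D1:**
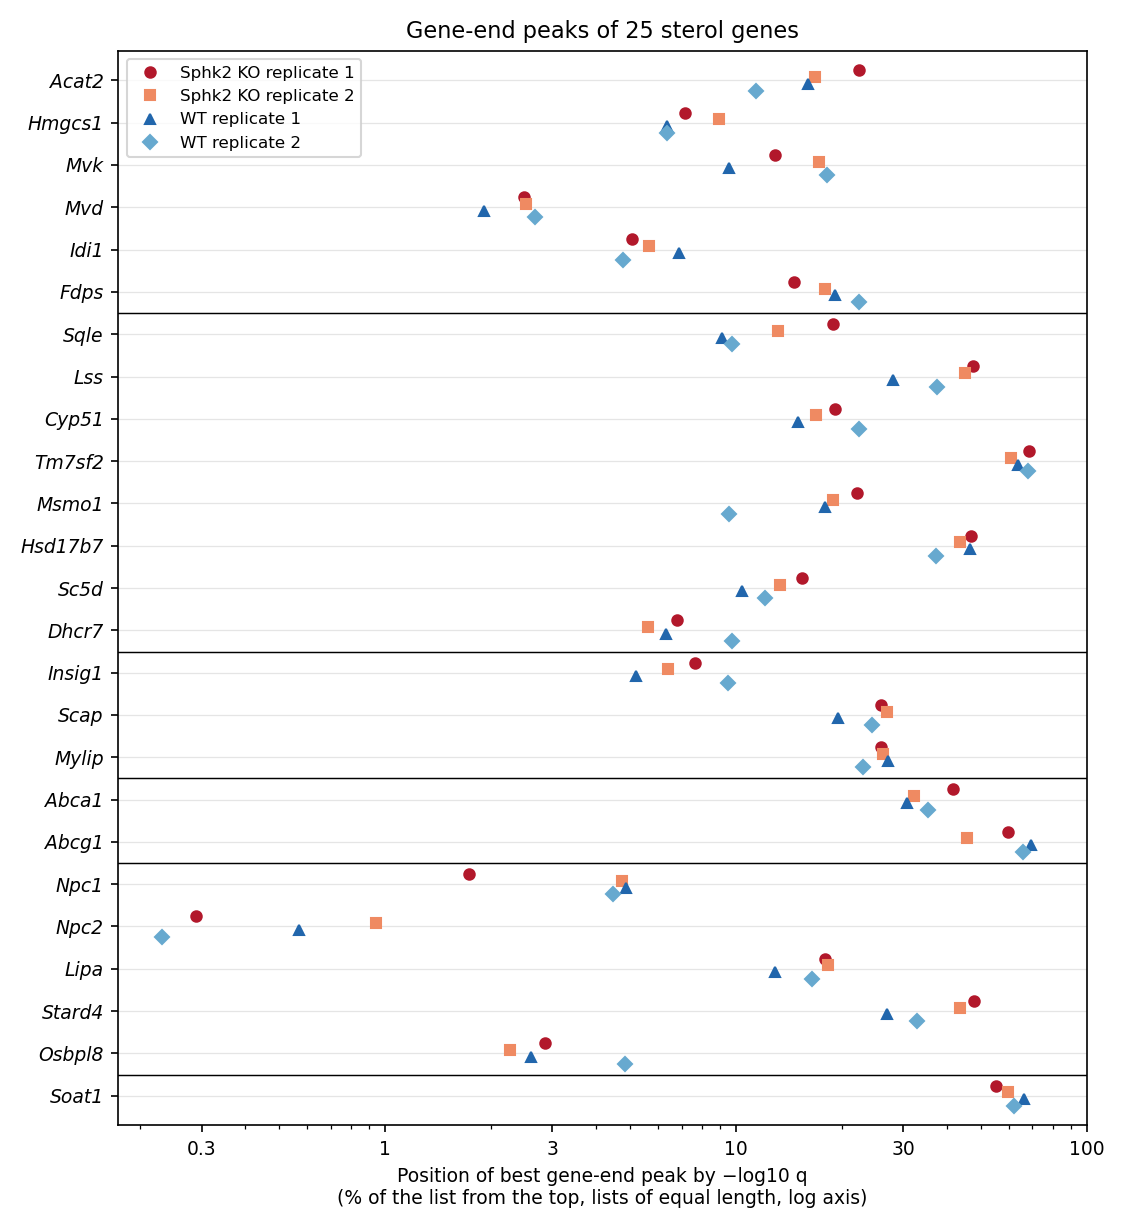
Position of each gene's best gene-end peak by −log10 q, as a percentage of the list from the top (log axis), after every list was shortened to its 20759 top peaks; symbols are the 4 libraries and horizontal lines part the roles. Npc2 lies below 1% in every library, and Tm7sf2, Abcg1 and Soat1 lie beyond 45%.

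Of the sterol-sensing genes, 3 of 4 had gene-end peaks. Insig1 was the strongest at 7.64% and 4.92% in Sphk2 KO and 3.42% and 6.18% in WT. Scap stood at 26.0% and 20.6% in Sphk2 KO and 12.9% and 15.9% in WT. Mylip, an LXR-induced ubiquitin ligase that sends lipoprotein receptors to degradation, stood at 26.0% and 20.2% in Sphk2 KO and 17.9% and 15.0% in WT. Every region within 10 kb of these 4 genes, 5 in all, was called in all 4 libraries.

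Both efflux transporters had gene-end peaks of modest strength. Abca1, which loads cholesterol onto apolipoprotein A-I, stood at 41.7% and 24.6% in Sphk2 KO and 20.3% and 23.0% in WT. Abcg1, which exports cholesterol to high-density lipoprotein, stood at 59.5% and 35.0% in Sphk2 KO and 45.7% and 42.9% in WT. The Abcg1 peak had a fold enrichment of 4.90 and 6.82 in Sphk2 KO and 4.94 and 4.87 in WT, so the 2 genotypes overlapped.

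At Abca1 the summit of the promoter peak was placed differently in the genotypes. The region, chr4:53158692-53160206, was called in all 4 libraries, as a peak of 1372 and 1449 bp in Sphk2 KO and of 1465 and 1496 bp in WT. Its summit lay 1086 and 1085 bp downstream of the listed start in Sphk2 KO and 59 bp upstream of it in both WT libraries. The called peak thus spanned most of the region in every library, and the summit is its single highest base. By a criterion set after the Abca1 summits had been seen, which gives a description only, summits within 100 bp of each other inside each genotype and at least 500 bp apart between them were found at this 1 of the 25 sterol genes, against 0.45% of all 9109 genes with a gene-end peak in all 4 libraries. With 250 bp windows around summits in place of peaks, Abca1 counted as having a gene-end peak in WT alone. Among the 20 sterol genes with a listed start, 18 had the summit within 300 bp of it in every library, and the exceptions were Abca1 and Tm7sf2, whose summit lay 667 to 692 bp downstream. Abcg1 had no listed start and was not among them. Its gene-end summit lay at 31057929 and 31057941 in Sphk2 KO and at 31057937 and 31058816 in WT, so it differed within the WT genotype.

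**Figure D2:**
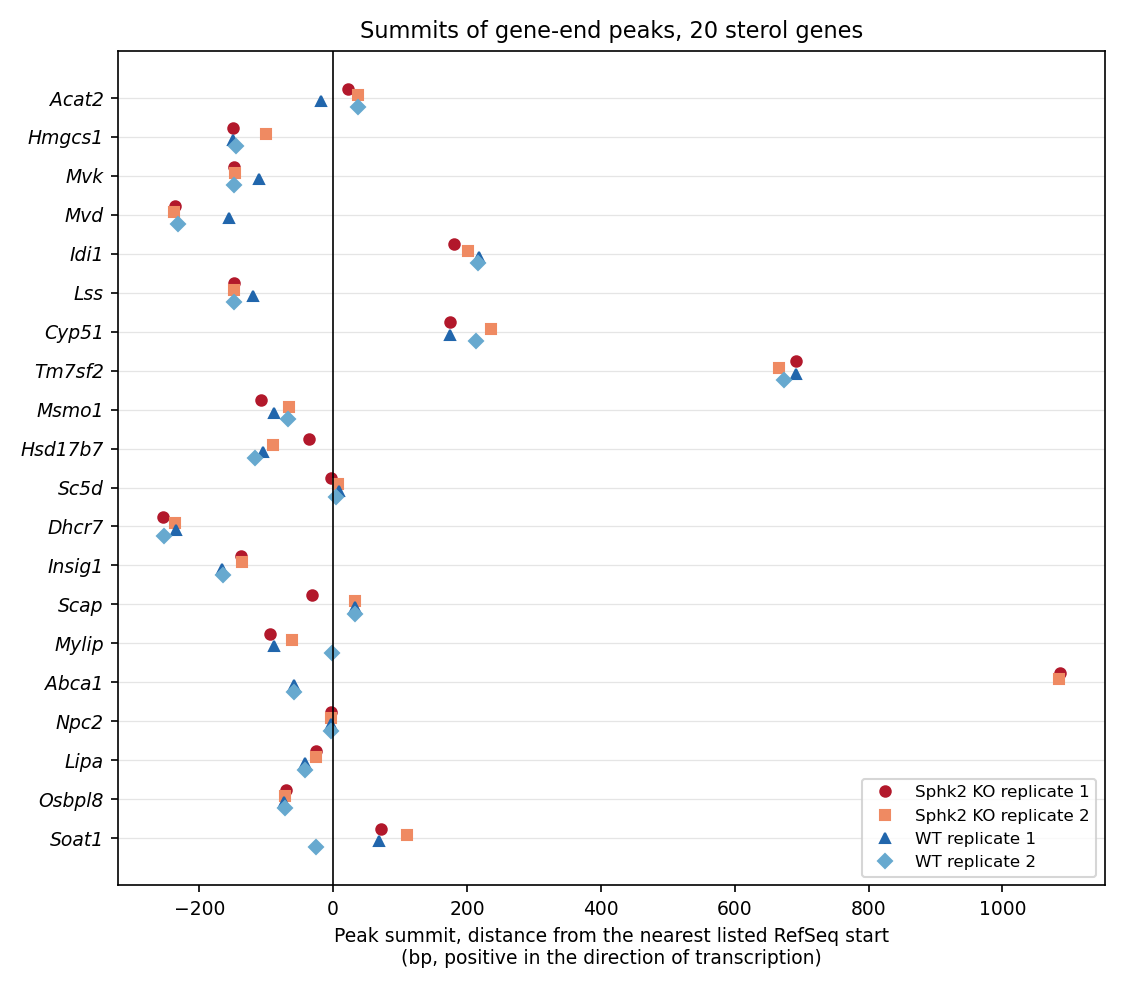
Distance in bp of the peak summit from the nearest listed RefSeq start, positive in the direction of transcription, for 20 sterol genes in the 4 libraries. The Sphk2 KO summits of Abca1 lie at 1086 and 1085 bp and its WT summits at -59 bp, and at most other genes the 4 symbols lie close together.

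Lysosomal and transport genes held the strongest gene-end peak of the set, that of Npc2, and all 5 had one. Npc2, a lysosomal cholesterol carrier, ranked first among the sterol genes in every library, at 0.289% and 0.721% in Sphk2 KO and 0.375% and 0.151% in WT. Its −log10 q was 163 and 267 in Sphk2 KO and 214 and 251 in WT, its summit lay 3 bp before the start in all 4 libraries, and its region also covered an end of Isca2. Npc1, its membrane partner, stood at 1.74% and 3.63% in Sphk2 KO and 3.21% and 2.90% in WT. Osbpl8, an oxysterol-binding protein relative at contacts of the endoplasmic reticulum with the plasma membrane, stood at 2.86% and 1.74% in Sphk2 KO and 1.71% and 3.16% in WT. Lipa, the lysosomal acid lipase, stood at 18% and 14.0% in Sphk2 KO and 8.48% and 10.8% in WT. Stard4, a soluble sterol carrier, stood at 47.6% and 33.4% in Sphk2 KO and 17.8% and 21.4% in WT, with fold enrichment of 7.11 and 9.11 in Sphk2 KO and 11.4 and 9.70 in WT. Soat1, which esterifies cholesterol for storage, had a weak promoter peak (55.1% and 45.8% in Sphk2 KO, 43.5% and 40.5% in WT).

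Ranks in full lists depend on list length. In full lists both WT positions were nearer the top than both Sphk2 KO positions at 16 of 25 sterol genes. The same held at 5104 of all 9109 genes with a gene-end peak in every library. The reverse held at 0 of 25 and at 182 of 9109. Positions were therefore also taken after every list was shortened to its 20759 top peaks. Ties at the limit were kept, which left 21032 peaks in Sphk2 KO replicate 2. The median position of the 25 sterol genes was then 18.9% and 17.3% in Sphk2 KO and 15.0% and 16.5% in WT, nearer the top than the median of all genes with such a peak (27.5% and 27.8% in Sphk2 KO, 27.9% and 28.2% in WT). Both WT positions were nearer the top than both Sphk2 KO positions at 9 of 25 genes, namely Acat2, Hmgcs1, Sqle, Lss, Msmo1, Sc5d, Scap, Lipa and Stard4, against 21% of all genes. The reverse held at 3 of 25, Fdps, Abcg1 and Soat1, against 18.6% of all genes. Among the 9 genes, Stard4 (47.6% and 43.6% in Sphk2 KO, 27.0% and 32.9% in WT) and Lss (47.3% and 45% in Sphk2 KO, 28.0% and 37.4% in WT) lay in the middle of the lists. Abcg1, nearer the top in Sphk2 KO, stood at 59.5% and 45.6% in Sphk2 KO and 69.3% and 65.7% in WT. At Scap the values were 26.0% and 26.9% in Sphk2 KO and 19.5% and 24.4% in WT. With ranks by fold enrichment in such lists, a setting added after the data had been seen, WT was nearer the top at 7 of 25 genes, against 16.3% of all genes, and Sphk2 KO at 5 of 25, against 18%. Hmgcs1 and Sc5d were then no longer among the WT genes, and Tm7sf2 and Npc1 joined the Sphk2 KO genes. A rank is not a measure of accessibility, and no test was made of it.

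At each of the 4 genes without a gene-end peak, the strongest region lay inside the gene. Pmvk also had a weak region 4501 bp outside it, in Sphk2 KO replicate 1 and WT replicate 2. At Fdft1, the squalene synthase, a strong region lay 3259 bp inside the upper-coordinate end, chr14:63177662-63178428, with −log10 q ranks of 3.49% and 3.20% in Sphk2 KO and 1.48% and 2.20% in WT. At Insig2, the region chr1:121327311-121328396 covered internal RefSeq starts and was called in all 4 libraries (21.9% and 21.4% in Sphk2 KO, 16.8% and 14.9% in WT). Its outermost start at 121332589 had no peak within 1 kb. At Pmvk, phosphomevalonate kinase, the region chr3:89458571-89459589 had summits at -512 and -508 bp in Sphk2 KO and -466 and -512 bp in WT from the internal start at 89459571 (27.1% and 17.1% in Sphk2 KO, 16.7% and 13.0% in WT), and the outer start had none. At these 3 genes, then, the gene-end window missed a peak that each of the 4 libraries shared.

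Sult2b1 was the exception, with a peak in Sphk2 KO alone. The region chr7:45741406-45742757 was 1352 bp wide and held −log10 q of 19.6 and 41.4, a fold enrichment of 6.24 and 7.45 and a pileup of 43 and 80 fragments in Sphk2 KO replicates 1 and 2. Neither WT library had a peak anywhere in Sult2b1 or within 10 kb of it. Peak lists do not give the WT signal at this position. The region stood at 43.8% and 32.3% of the Sphk2 KO lists, among peaks of middling strength. It covered the internal of the 2 listed Sult2b1 starts, at 45742478, with summits 529 and 651 bp downstream of it, while the outer start at 45759612 had no peak in any library. Counting a peak within 1 kb of any listed start, 23 of 23 genes had one in each Sphk2 KO library and 22 of 23 in each WT library (exact p = 0.333), against 44.8% and 49.3% of all genes in Sphk2 KO and 50.1% and 51% in WT. In all 4 libraries it was 22 of 23, against 44% of all genes. Sult2b1 was the 1 gene called in both Sphk2 KO and neither WT library by this count, against 0.0915% of all genes, and 0 genes had the reverse, against 1.31%. This count was added after the data had been seen. With the gene body extended by 50 kb, Sult2b1 no longer differed, since other peaks came within reach in WT.

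Both Sult2b1 promoters are shown because only the inner one lay in a called peak. The inner is chr7:45742479-45742728 and the outer chr7:45759613-45759862, both on the minus strand and ending at the base before the start. Neither holds the NF-Y box, GC box, E-box or sterol element searched for before the start, so no letter is in capitals.
Sult2b1 inner: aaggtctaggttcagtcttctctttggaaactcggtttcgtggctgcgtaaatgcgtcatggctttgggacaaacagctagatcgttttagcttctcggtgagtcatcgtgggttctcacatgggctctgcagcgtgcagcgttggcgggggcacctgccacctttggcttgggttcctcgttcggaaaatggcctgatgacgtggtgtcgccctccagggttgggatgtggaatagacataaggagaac
Sult2b1 outer: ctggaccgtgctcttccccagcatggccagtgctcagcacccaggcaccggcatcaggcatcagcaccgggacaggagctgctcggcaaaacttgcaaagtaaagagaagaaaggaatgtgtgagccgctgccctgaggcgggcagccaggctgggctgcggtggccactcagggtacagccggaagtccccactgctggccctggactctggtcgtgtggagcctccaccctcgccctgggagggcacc

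The position of Sult2b1 bears on how its peak can be read. Its lower-coordinate end lies 11979 bp from the end of Sphk2, the deleted gene, and the called region lies 23404 bp from it. Within 100 kb of Sphk2 on either side, 13 regions were called, 9 of them in all 4 libraries, 2 in both Sphk2 KO libraries only (15.4%) and 1 in both WT libraries only (7.69%). Over all regions within 10 kb of a gene these shares were 0.62% and 5.45%. The other region called in Sphk2 KO only, chr7:45715043-45716683, lay within Sphk2 and Rpl18 (−log10 q 26.4 and 42.2). Effects of kinase loss, of the altered allele on its neighbours, and of DNA carried along with the allele cannot be told apart at this position in this design. Dhcr7, the other sterol gene on chromosome 7, lies 98.1 Mb away and had its promoter peak in every library.

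**Figure D3:**
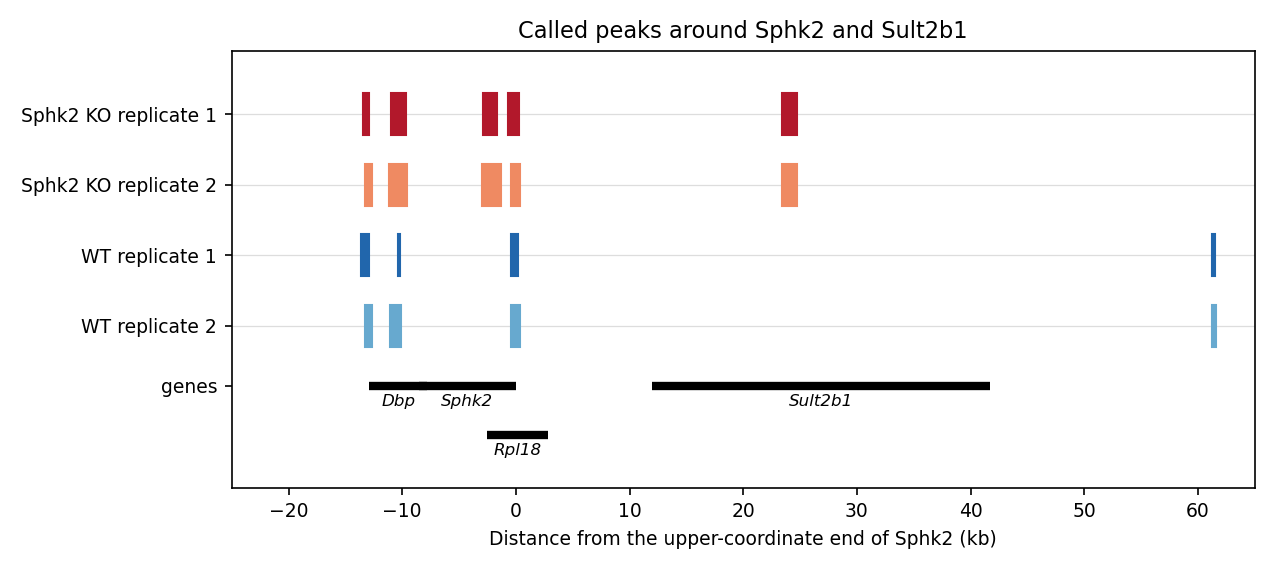
Called peaks (boxes) of the 4 libraries and the genes Dbp, Sphk2, Rpl18 and Sult2b1 (black bars), by distance in kb from the upper-coordinate end of Sphk2. The box inside Sult2b1 is present in both Sphk2 KO libraries and absent from both WT libraries, as is the one inside Sphk2.

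Away from gene ends, a smaller share of regions was called in every library. The bodies extended by 10 kb held 75 merged regions, and 48 (64.0%) had a peak from each of the 4 libraries, against 48.9% of the 29345 regions within 10 kb of any protein-coding gene. Of the 28 regions at the sterol genes' own ends, 27 were called in all 4, against 75.5% of regions at an end of any gene. Of the 47 others 21 were, against 33.5% of regions at no gene's end. These sets are not alike, since 4 of the 21 lay at an end of another gene. Only 1 region was called in both Sphk2 KO and neither WT library (1.33%, against 0.62%), and 2 were called in both WT and neither Sphk2 KO library (2.67%, against 5.45%). With any 1 library left out the pattern asks for fewer libraries, so more regions can meet it. Then 2 to 6 regions were Sphk2 KO-only, with 6 when Sphk2 KO replicate 1 was left out. A peak in Sphk2 KO replicate 2 alone then sufficed, a pattern that 5 regions had. WT-only regions numbered 2 to 6, with 6 without WT replicate 2 and 5 without Sphk2 KO replicate 2 or WT replicate 1. The shares over all regions were not taken with a library left out. With all libraries, 3 of 75 regions were called in both second replicates and in neither first one, against 3.2% of all regions. Another 3 lacked a peak in Sphk2 KO replicate 1 alone, against 8.36%, and 13 were called in a single library, against 28.8%. Of the 75 regions, 12 also lay within 1 kb of another gene's end, so their assignment is by distance only.

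The WT-only regions were weak. The one in Npc1, chr18:12199488-12200000, 9794 bp inside the gene and within 1 kb of an end of its neighbour Rmc1, had −log10 q ranks of 63.7% and 57.4% and a fold enrichment of 4.42 and 5.11 in WT. The one in Fdft1, chr14:63157620-63157856, stood at 87.7% and 85.1% with a fold enrichment of 3.09 and 3.14. Both had pileups of 13 to 25 fragments. By contrast, a region of 222 bp in Lipa, chr19:34500861-34501082, was called in Sphk2 KO replicate 2 and WT replicate 2 (fold enrichment 9.35 and 7.27) and in neither first replicate. The other regions called in both second replicates alone were weaker, in Mvd (fold enrichment 2.59 in Sphk2 KO and 2.65 in WT) and in Abcg1 (3.46 in Sphk2 KO and 3.02 in WT).

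Regions were most numerous at Soat1, Abca1 and Npc2. Soat1 had 8 regions, 4 of them in all 4 libraries, and Abca1 and Npc2 had 6 each, 3 of them in all 4. The Abca1 region chr4:53120180-53120994, 38994 bp inside the gene, ranked at 34.4% and 27.0% in Sphk2 KO and 17.8% and 13.6% in WT, above the promoter peak of the gene in every library except Sphk2 KO replicate 2. An Npc1 region 11682 bp inside the gene stood at 22.7% and 12.6% in Sphk2 KO and 7.59% and 11.0% in WT. By contrast, 13 of the 29 genes, among them Hmgcs1, Idi1, Sqle, Cyp51, Lss and Insig1, had a single region within 10 kb of the gene.

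**Figure D4:**
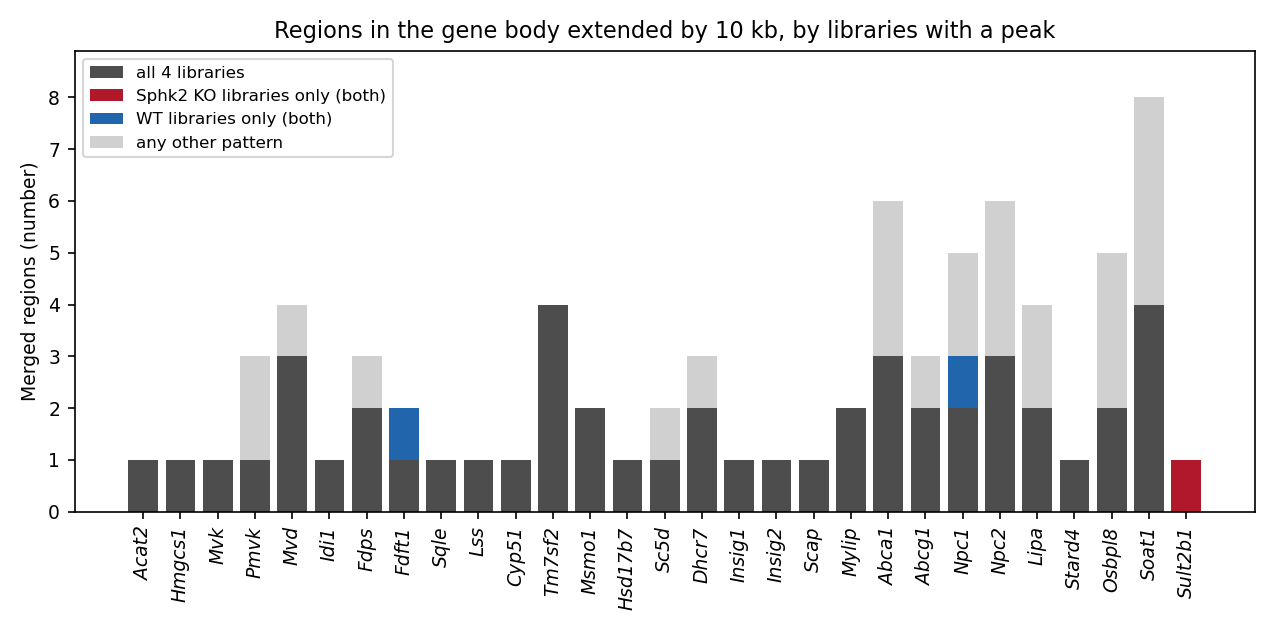
Number of merged regions in each gene's body extended by 10 kb, coloured by the libraries with a peak. The bar of Sult2b1 alone is made of a Sphk2 KO-only region, and WT-only regions appear at Fdft1 and Npc1.

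Other genes of sterol biology, 44 of which were found in the gene table, were counted the same way. Gene-end peaks were called at 33 and 37 of 44 in Sphk2 KO and at 36 and 39 in WT (difference -2.5, exact p = 0.667), against 42.5% and 47.2% of all genes in Sphk2 KO and 47.9% and 48.8% in WT. In all 4 libraries 30 of 44 (68.2%) had one, against 41.6% of all genes. Cyp27a1, a mitochondrial sterol hydroxylase, was among those with one in WT replicates 1 and 2 while Sphk2 KO had none, a pattern held by 1.27% of all genes, and no gene of the list had the reverse. Within the body extended by 10 kb the counts were 40 and 41 in Sphk2 KO and 43 and 43 in WT (exact p = 0.333), against 56.5% and 62.4% of all genes in Sphk2 KO and 64.5% and 65.1% in WT, and Cyp27a1 again had peaks in WT alone. Vldlr, the very-low-density lipoprotein receptor, had no peak in any library.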

How the data were processed

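Peak lists of 4 ATAC-seq libraries were used, each from 20000 sorted cells and 40% of the recommended Tn5, per the labels' protocols. The submitters' processing notes name cutadapt, BWA, MACS2 and mm10. Peaks were called per library by MACS 2.1.1.20160309 from paired-end fragments at a q-value of 0.05, without a control library and keeping 1 fragment per position, per the file headers. No source used here states an offset correction for Tn5 cut sites. The deposited columns used were the pileup (a coverage signal not scaled to depth), −log10 of the p-value and q-value, and the authors' fold enrichment, the ratio of a summit's pileup to its local background. No read counts per region were used, so presence of a peak was the readout.

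Genes came from the RefSeq table of GRCm38.p6. A gene-end peak lay within 1 kb of either end. Peaks sharing at least 1 bp were merged into regions. Libraries were compared by two-sided exact permutation. Each p-value is the share of relabellings of the libraries that give a difference at least as large as the one seen. Shared replicate numbers were not tied to animals or batches. All 29 genes could be named; values were given first for genes called in one genotype, the 2 best-ranked per role and genes without a gene-end peak. The members and lists were chosen with earlier results of these data known. The windows, merging and patterns were tested on simulated data. One listed sterol gene was absent from the table, and the values of another are not reported here. Python 3.11.15, pandas 2.3.3 and scipy 1.17.1 were used.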

Additional observations from a re-analysis of the deposited data

How the results depend on the processing

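The 25 genes with gene-end peaks gave a difference of 0 under a −log10 q of at least 5, lists of equal length, 500 bp of slack, gene ends of 500 bp or 2 kb and each library left out. With 250 bp summit windows it was -1, since Abca1 then had a WT-only peak (1 gene). With any listed start it was 1, with 1 Sphk2 KO-only gene, Sult2b1. The body count differed by 0.5 with the body not extended and by 0 at 50 kb, where 0 genes were Sphk2 KO-only. With libraries paired by replicate number, the mean differences of the gene-end and body counts were 0 and 1, unchanged. The exact test that flips the signs of the paired differences cannot give a p under 0.5. Sphk2 KO-only and WT-only regions numbered 2 and 1 at a −log10 q of at least 5, 3 and 1 in lists of equal length, 2 and 4 with summit windows, 2 and 6 at 50 kb, and 2 and 2 with 50% overlap. Without any 1 library, where the pattern asks for fewer libraries, they ranged from 2 to 6 (6 Sphk2 KO-only without Sphk2 KO replicate 1) and from 2 to 6 (6 WT-only without WT replicate 2). The shares over all regions were not taken under these settings, so these counts have no background to be read against. The median position of the sterol genes in full lists was 18.9% and 13.3% in Sphk2 KO and 9.88% and 10.8% in WT. Over all genes with such a peak it was 27.5% and 23.0% in Sphk2 KO and 20.4% and 20.7% in WT. Genes at large thus also stood nearer the top in WT in full lists. By fold enrichment the median of the sterol genes was 14.0% and 9.95% in Sphk2 KO and 6.72% and 8.41% in WT. By pileup it was 21.7% and 15.6% in Sphk2 KO and 11.6% and 12.4% in WT. In lists of equal length it was 18.9% and 17.3% in Sphk2 KO and 15.0% and 16.5% in WT. With equal lists by fold enrichment it was 14.0% and 12.9% in Sphk2 KO and 10.2% and 12.9% in WT. The causes were not tested. Peak lists show no accessibility below the calling threshold, and the Sphk2 KO libraries had fewer fragments.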
